A study of Mus musculus with 2 samples.

Results

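The 10 genes described here are the endothelin and vasoactive tone genes Edn1, Ednra, Ednrb, Ece1, Nos3, Ptgs1, Ptgs2, Agtr1a, Cav1 and Vipr1, chosen by name and not by their values. All 10 were listed in the deposited single-cell tables of the normal liver (20468 genes) and of the fibrotic liver (20473 genes), out of 21722 genes listed in either table. Non-parenchymal cells came from 2 male C57BL/6 mice of 8 weeks. The fibrosis mouse received CCl4, a hepatotoxin that injures cells around the central vein, as 15% in olive oil at 0.6 µl per g of body weight, injected 2 times a week for 6 weeks, and the normal mouse received olive oil on the same schedule. Cells were taken 48 h after the last injection, hepatocytes were reduced by slow spins and a density gradient, and each mouse gave 1 library. No value below therefore has a biological replicate, whatever separates the libraries separates 2 single mice, and no test was made.

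Blood flow through the liver sinusoid is set by the balance of constricting and relaxing signals between endothelial cells and the stellate cells wrapped around them. Endothelin and angiotensin II contract stellate cells through receptors on those cells, while nitric oxide and prostacyclin from endothelium relax them. In fibrosis this balance is known to shift toward constriction, which adds to portal hypertension.

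The normal library held 8130 cells and 44062632 unique molecular identifiers (UMIs), with a median of 4144.5 per cell, and the fibrosis library 6437 cells and 53288463 UMIs, with a median of 5619. After the 10% mitochondrial limit 7471 and 6132 cells remained. Of the cell barcodes, 15 occurred in both libraries, and Scrublet called 1 doublet in each. Classes were named from marker genes and carry the ending -like. Liver sinusoidal endothelial cell (LSEC)-like cells numbered 1624 and 1226, in the order normal then fibrosis that is kept below. Among them were 270 and 286 zone 1-like (periportal) cells, 257 and 185 zone 2/3-like (pericentral) cells and 1097 and 755 cells without a zone. The zone names are the weakest, with 5 of 12 zone 1 markers and 8 of 12 zone 2/3 markers more than 2 times higher than in the other LSEC-like cells in each library, and the zone 2/3 marker Ptn at 0 UMIs in both. Endothelium of the large vessels gave 247 and 154 central-vein-like cells, with 10 and 8 of 12 markers raised, and 376 and 104 portal-vessel-like cells, with 13 and 11 of 14. Hepatic stellate cell (HSC)-like cells numbered 61 and 125 with all 16 markers raised in each, and Kupffer-cell-like cells 214 and 223 with all 11.

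A level below is the number of UMIs of a gene per 10000 UMIs of the class, with an exact 95% Poisson interval, and a ratio is given with an exact conditional 95% interval. These intervals cover counting error alone. B-cell-like cells (517 and 325), a type that should lack most of these genes, gave the background level. A level at or below theirs in the same library was read as background. Any expression of their own was not told apart from free RNA. They were shallow, with median depths of 2785 and 2219 UMIs, so the order of classes can turn when UMIs are counted per cell. Vipr1 in fibrosis was under the B-cell-like level in LSEC-like and Kupffer-cell-like cells. As UMIs per cell it was at 0.2993 and 0.2466 there, against 0.1385 in B-cell-like cells. A level under theirs therefore does not show that a class lacks the gene. A gene was counted as past the fold where the ratio was at least 1.5 either way, with at least 20 UMIs over both groups and at least 0.1 UMIs per 10000 in 1 of them. Levels are compared across classes and libraries for 1 gene at a time, since reads from the 3′ end do not rank genes against each other.

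The genes fell into 4 patterns of location. Among the named classes Edn1 was highest in large-vessel endothelium, while Ece1, Ednrb and Nos3 were found across endothelium, Ece1 and Ednrb also in HSC-like cells. Ednra, Agtr1a and Vipr1 had their highest level in HSC-like cells in both libraries. Ptgs1 was shared by Kupffer-cell-like and pericentral endothelial cells. Ptgs2 was highest in neutrophil-like cells and Cav1 in mesothelial-like cells.

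**Figure D1:**
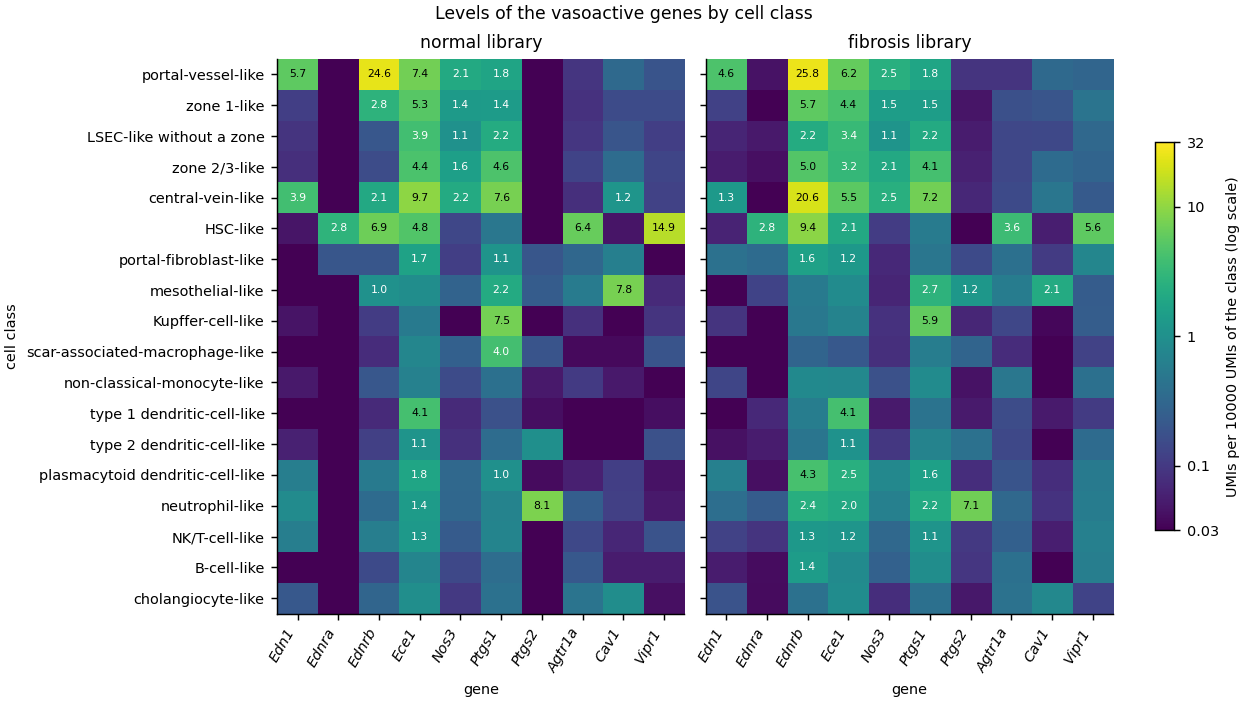
Level of each gene (columns) in 18 cell classes (rows) of the normal (left) and the fibrosis (right) library, as UMIs per 10000 UMIs of the class on a log colour scale that starts at 0.03, with the value printed where it is at least 1. Ednrb in central-vein-like cells stands at 2.1 on the left and 20.6 on the right, whereas its level in portal-vessel-like cells is 24.6 and 25.8.

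The 250 bases before a RefSeq transcription start are printed for Edn1 and Ednrb, whose levels differed in opposite directions in central-vein-like cells, and for Vipr1, which had the lowest fibrosis-to-normal ratio in HSC-like cells. They are from RefSeq on GRCm38.p6, 5′ to 3′ on the strand of the gene, at chr13:42301226-42301475 (plus strand) for Edn1, chr14:103843702-103843951 (minus strand) for Ednrb and chr9:121642466-121642715 (plus strand) for Vipr1, with motif matches in capitals. The Ednrb window lies inside the gene's annotated span, before an internal start and downstream of its first one, while the other two windows adjoin the first base of their genes.
Edn1: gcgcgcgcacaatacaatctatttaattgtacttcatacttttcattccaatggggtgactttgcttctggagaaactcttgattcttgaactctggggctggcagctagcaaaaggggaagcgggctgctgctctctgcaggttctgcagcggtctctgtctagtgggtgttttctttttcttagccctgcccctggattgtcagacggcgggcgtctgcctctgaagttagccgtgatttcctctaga
Ednrb: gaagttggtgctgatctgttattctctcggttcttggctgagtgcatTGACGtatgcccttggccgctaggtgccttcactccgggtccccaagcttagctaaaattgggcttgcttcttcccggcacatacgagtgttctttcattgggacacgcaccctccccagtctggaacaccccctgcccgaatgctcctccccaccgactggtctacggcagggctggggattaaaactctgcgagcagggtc
Vipr1: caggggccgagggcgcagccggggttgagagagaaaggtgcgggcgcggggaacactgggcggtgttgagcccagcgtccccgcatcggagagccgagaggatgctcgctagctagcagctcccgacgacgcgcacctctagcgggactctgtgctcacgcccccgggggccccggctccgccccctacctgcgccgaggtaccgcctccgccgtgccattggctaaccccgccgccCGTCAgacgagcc
The motifs searched on both strands, chosen after the values were seen, were TGANTCA (AP-1), TGACG (core of a cAMP response element), GATAA (GATA) and ACGTG (hypoxia response core), none of which overlapped another in the 3 windows. Ednrb held TGACG beginning 203 bases before the start, Vipr1 held its reverse complement CGTCA beginning 13 bases before the start, and the Edn1 window held no match. Of 32851 RefSeq windows of this length, 17.8% held TGACG on either strand, 6.75% TGANTCA, 22.6% GATAA and 16.6% ACGTG. A match describes letters and not a bound site. Windows were found for 8 of the 10 genes and not for Nos3 and Agtr1a.

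Edn1 (ENSMUSG00000021367, GRCm38 chr13:42301476-42307990) encodes the precursor of endothelin-1, a strong vasoconstrictor peptide. In the normal library its level was 5.67 (5.38 to 5.97) in portal-vessel-like cells and 3.92 (3.63 to 4.24) in central-vein-like cells. The corresponding fibrosis levels were 4.64 (4.20 to 5.11) and 1.32 (1.14 to 1.52). Among the named classes large-vessel endothelium was thus highest in each library. A further 170 fibrosis endothelial cells set aside for Kupffer cell markers stood at 1.74 (1.35 to 2.20), with 42 of their 69 UMIs in 3 cells. That was above the central-vein-like level, although the intervals overlapped. As reported here the central-vein-like level differed past the fold. Its ratio of fibrosis to normal was 0.337 (0.286 to 0.397), from 194 and 637 UMIs, against 0.818 (0.732 to 0.913) in portal-vessel-like cells, where 14% of 9702 genes tested were higher and 14.6% lower past the fold. The portal ratio ran from 0.456 with the 10 genes and the list left in for clustering, and 0.502 with no mitochondrial limit, both past the fold, to 1.15 without the highest Scrublet scores.

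After each cell was thinned to 1000 UMIs, Edn1 was detected in 21.5% of central-vein-like cells of the normal library (exact binomial 95% interval 16.5 to 27.1) and in 11% of those of the fibrosis library (6.56 to 17.1). Without thinning the shares were 38.5% and 26.6%, so fewer cells carried an Edn1 UMI in fibrosis although these cells were deeper, with median depths of 6230 and 8612 UMIs. In portal-vessel-like cells the thinned shares were 28.7% (24.2 to 33.6) and 22.1% (14.6 to 31.3). The sinusoid held little Edn1. Its level in LSEC-like cells was 0.0929 and 0.0767 per 10000, next to 0.0201 and 0.0537 in B-cell-like cells, and zone 1-like and zone 2/3-like cells did not differ beyond counting error in the normal library (ratio 1.43, 0.679 to 3.14), although that ratio ran from 0.239 at a mitochondrial limit of 5% to 1.83 at a Leiden resolution of 1.5. HSC-like cells had 2 and 10 Edn1 UMIs.

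Ece1 (ENSMUSG00000057530, GRCm38 chr4:137862237-137965229) encodes the protease that cuts the inactive precursor to active endothelin. Central-vein-like cells had the highest level of the normal library, 9.69 (9.21 to 10.2), and 5.53 (5.16 to 5.93) in fibrosis, a ratio of 0.571 (0.524 to 0.622). Portal-vessel-like cells held 7.35 and 6.23 and LSEC-like cells 4.28 and 3.59, with ratios of 0.847 (0.769 to 0.932) and 0.839 (0.802 to 0.878) that stayed within the fold. The fibrosis level was the lower one in these 3 endothelial classes per 10000 UMIs, but as UMIs per cell the ratios were 0.827 in central-vein-like, 1.1 in portal-vessel-like and 1.30 in LSEC-like cells. HSC-like cells had 4.82 (4.19 to 5.52) and 2.07 (1.85 to 2.30), a ratio of 0.429 (0.359 to 0.513), or 0.772 as UMIs per cell. Among immune classes type 1 dendritic-cell-like cells stood out, with 4.11 and 4.15, against a B-cell-like background of 0.724 and 0.859.

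Ednra (ENSMUSG00000031616, GRCm38 chr8:77663031-77724464) encodes the type A endothelin receptor, which mediates constriction in contractile cells. Its level in HSC-like cells was 2.83 (2.35 to 3.38) and 2.76 (2.51 to 3.03), a ratio of 0.978 (0.798 to 1.20), so no difference was detectable at 122 and 440 UMIs. Counted as UMIs per cell the ratio was 1.76, and with no mitochondrial limit 0.534. The mesenchymal sub-clusters set aside for other markers stood at 1.60 in the normal library and between 1.21 and 2.40 in fibrosis, and portal-fibroblast-like cells followed at 0.20 and 0.357. The B-cell-like background was 0.0134 and 0.0403, and central-vein-like cells of the normal library had 0 UMIs of Ednra.

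Ednrb (ENSMUSG00000022122, GRCm38 chr14:103814625-103844402) encodes the type B endothelin receptor, which on endothelium couples to nitric oxide release and takes up circulating endothelin. In the normal library its level was 24.6 (24.0 to 25.2) in portal-vessel-like cells, 2.76 (2.52 to 3.02) in zone 1-like cells, 0.159 (0.104 to 0.233) in zone 2/3-like cells, with central-vein-like cells at 2.06 (1.84 to 2.29). Sinusoidal Ednrb of the normal liver was therefore on the periportal side, 17.4 times (11.7 to 26.9) higher in zone 1-like than in zone 2/3-like cells, and the zone 2/3-like level was close to that of B-cell-like cells, 0.148. The zone ratio ran from 4.37 at a Leiden resolution of 0.4 to 232 with the B-cell-like level subtracted. In the fibrosis library the levels along the same path were 25.8 (24.8 to 26.9), 5.65 (5.37 to 5.95), 5.03 (4.70 to 5.38) and 20.6 (19.9 to 21.4). The zone ratio was then 1.12 (1.03 to 1.22), and ran from 0.311 with the 10 genes and the list left in for clustering to 3.26 without the highest Scrublet scores, past the fold in opposite directions.

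Among the portal-vessel-like, zone 1-like, zone 2/3-like and central-vein-like cells of this path, Ednrb thus differed most between the libraries at the pericentral end. LSEC-like cells without a zone, whose levels are given below, were left out of this ranking. The zone 2/3-like ratio starts from a normal level close to that of B-cell-like cells. The ratio of fibrosis to normal was 10.0 (8.94 to 11.2) in central-vein-like cells, from 3021 and 334 UMIs, 31.7 (21.5 to 48.8) in zone 2/3-like cells from 845 and 26, and 2.05 (1.84 to 2.27) in zone 1-like cells. Across the alternatives the zone 2/3-like ratio ran from 22.7 to 320 and the zone 1-like ratio from 1.08, with the 10 genes and the list left in for clustering, to 3.84. The ratio was 1.05 (1.0 to 1.10) in portal-vessel-like cells. Thinned to 1000 UMIs, 11.7% (8.01 to 16.4) of normal and 68.2% (60.2 to 75.5) of fibrosis central-vein-like cells had an Ednrb UMI, and without thinning 26.3% and 95.5%. Most cells of the fibrosis class thus carried Ednrb. The 3 central-vein-like cells with the most Ednrb held 92 of the 334 UMIs in the normal library and 316 of the 3021 in fibrosis.

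The Ednrb background differed too. B-cell-like cells had 0.148 (0.0925 to 0.223) and 1.42 (1.16 to 1.72), a ratio of 9.64 (6.05 to 16), and thinned shares of 1.93% and 14.4% at median depths of 2785 and 2219 UMIs. Plasmacytoid dendritic-cell-like cells of the fibrosis library had 4.27, close to the zone 2/3-like level, although 230 of their 603 UMIs lay in 3 cells. Erythroid-like cells of that library had 3.20 (2.83 to 3.6), with 53 of 276 UMIs in 3 cells, and neutrophil-like cells 2.41 (1.99 to 2.91), both above the 2.20 of LSEC-like cells without a zone, which had 0.204 in the normal library. Thinned shares were 26.3% in erythroid-like cells, of which 285 of 600 were deep enough, 25.5% in zone 2/3-like cells and 16.1% in LSEC-like cells without a zone. The part of free RNA in the lower of these levels was not tested. The central-vein-like level of the fibrosis library was above every immune class.

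Further markers of these cells were read after the values were seen. Rspo3, a Wnt agonist of pericentral endothelium, stood at 27.4 and 16.8 in central-vein-like cells, Wnt9b at 5.04 and 4.73 and Wnt2 at 6.60 and 10.7. The portal vessel marker Gja5 was at 0.0308 and 0.0341 there, against 3.64 and 6.49 in portal-vessel-like cells. Among central-vein-like cells with a UMI of Rspo3 or Wnt9b and none of Gja5 or Adgrg6 (216 and 131 cells), Ednrb was at 1.88 (1.66 to 2.12) and 21.7 (20.9 to 22.5), and Edn1 at 3.83 (3.51 to 4.16) and 1.47 (1.27 to 1.70). These cells are most of the class, so the values largely repeat those of the class. Vwf, a clotting factor of large-vessel endothelium and the gene with the pattern most like Edn1, was at 10.6 and 1.45 in central-vein-like cells and at 5.93 and 7.29 in portal-vessel-like cells. Edn1 and Ednrb UMIs were seen together in 18 of 247 normal and 39 of 154 fibrosis central-vein-like cells without thinning. After thinning they were together in 4 and 12 cells, where independent detection would give 6.22 and 11.59.

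**Figure D2:**
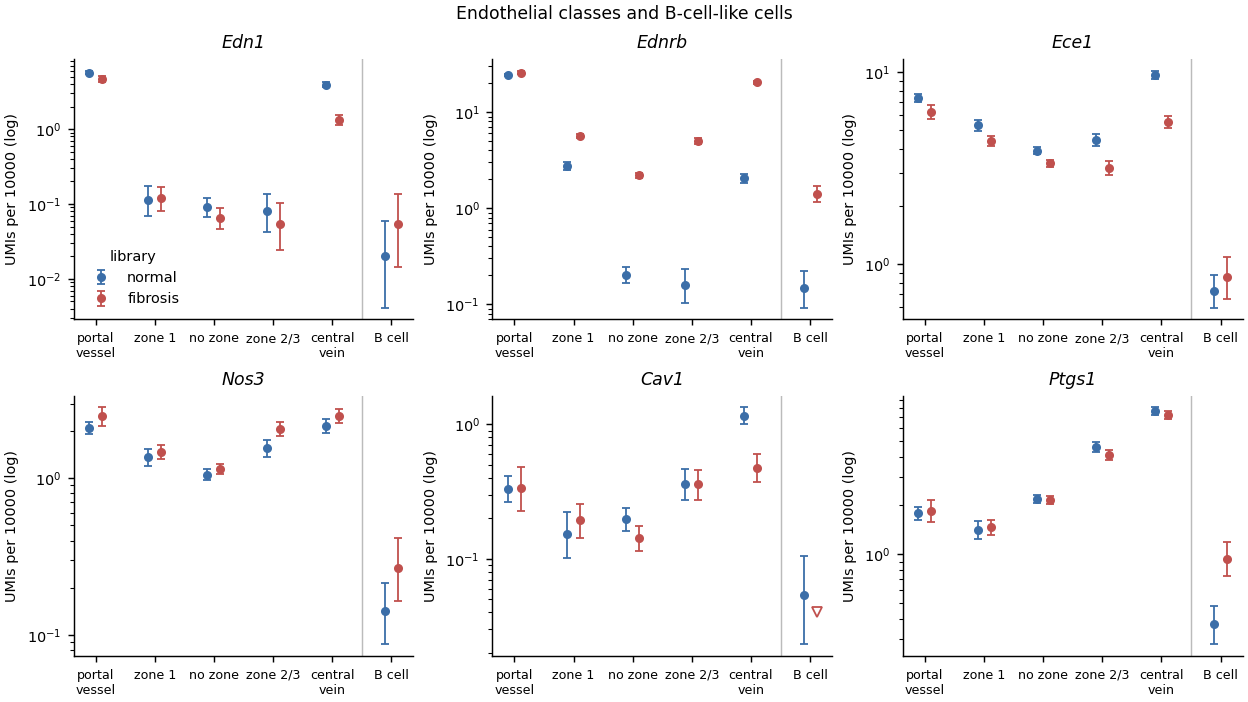
Levels of 6 genes along the path from portal vessel to central vein, with B-cell-like cells at the right as background, in the normal (blue) and the fibrosis (red) library. Points are UMIs per 10000 UMIs on a log axis, bars are exact 95% Poisson intervals from counting alone, and an open triangle marks the limit of a count of 0. Ednrb in fibrosis is above normal in zone 1-like, unzoned, zone 2/3-like, central-vein-like and B-cell-like cells, while the portal vessel points nearly coincide.

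In HSC-like cells Ednrb stood at 6.86 (6.10 to 7.69) and 9.43 (8.96 to 9.92), a ratio of 1.37 (1.21 to 1.56) that stayed within the fold, and of 2.47 as UMIs per cell. Ednra and Ednrb UMIs were found together in 40 of 61 normal and 88 of 125 fibrosis HSC-like cells without thinning. After thinning they were together in 8 and 12 cells, where independent detection would give 7.62 and 13.69. Thinned shares were 24.6% and 23.2% for Ednra and 50.8% and 47.2% for Ednrb. HSC-like cells thus carried each endothelin receptor at similar thinned shares in the libraries.

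Nos3 (ENSMUSG00000028978, GRCm38 chr5:24364810-24384474) encodes endothelial nitric oxide synthase, the source of the relaxing signal. Its level was 1.21 (1.14 to 1.28) and 1.37 (1.30 to 1.45) in LSEC-like cells, 2.16 (1.94 to 2.40) and 2.49 (2.24 to 2.76) in central-vein-like cells and 2.10 (1.93 to 2.29) and 2.48 (2.17 to 2.83) in portal-vessel-like cells. The 3 ratios of fibrosis to normal, 1.14 (1.05 to 1.23), 1.15 (0.992 to 1.34) and 1.18 (1.0 to 1.38), stayed within the fold, but as UMIs per cell they were 1.76, 1.67 and 1.53. Central-vein-like and portal-vessel-like cells did not differ beyond counting error, with ratios of 1.03 (0.895 to 1.18) and 1.0 (0.847 to 1.19). In HSC-like cells Nos3 was at 0.139 and 0.107, at or under the B-cell-like levels of 0.141 and 0.268.

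Cav1 (ENSMUSG00000007655, GRCm38 chr6:17306335-17341452) encodes caveolin-1, the coat protein of caveolae that binds and restrains endothelial nitric oxide synthase. Mesothelial-like cells had its highest level, 7.75 (7.04 to 8.52) and 2.15 (1.93 to 2.38), a ratio of 0.277 (0.240 to 0.319). Within endothelium central-vein-like cells led the normal library with 1.16 (0.999 to 1.34) and had 0.477 (0.372 to 0.603) in fibrosis, a ratio of 0.412 (0.309 to 0.545). LSEC-like cells held 0.218 and 0.190. The zone 1-like level was below the zone 2/3-like one in both libraries, by ratios of 0.427 (0.260 to 0.684) and 0.542 (0.365 to 0.802), and with no mitochondrial limit the fibrosis ratio turned to 1.09.

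Ptgs1 (ENSMUSG00000047250, GRCm38 chr2:36230426-36252272) encodes the constitutive cyclooxygenase, which makes the common precursor of prostacyclin and thromboxane. In Kupffer-cell-like cells its level was 7.53 (7.10 to 7.97) and 5.94 (5.62 to 6.26), a ratio of 0.788 (0.728 to 0.854). In central-vein-like cells it was 7.62 (7.20 to 8.06) and 7.25 (6.82 to 7.70), a ratio of 0.951 (0.876 to 1.03). Both classes kept to within the fold. Along the sinusoid Ptgs1 ran against Ednrb of the normal liver, with 1.42 and 1.46 in zone 1-like and 4.57 and 4.11 in zone 2/3-like cells. The zone ratio was 0.310 (0.268 to 0.359) in the normal and 0.356 (0.313 to 0.404) in the fibrosis library. Scar-associated-macrophage-like cells had 4.0 (3.27 to 4.84) in the normal library, where they were 50 cells with 7 of 12 markers raised, and 0.598 (0.523 to 0.680) in fibrosis, where they were 193 cells with 9 of 12. The latter value was under the B-cell-like level of 0.939, and in the same library Kupffer-cell-like cells stood well above it. Counted per cell the order turned, with 1.197 Ptgs1 UMIs in fibrosis scar-associated-macrophage-like cells against 0.2154 in B-cell-like cells. Their median depths were 18559 and 2219 UMIs.

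Ptgs2 (ENSMUSG00000032487, GRCm38 chr1:150100031-150108227) encodes the inducible cyclooxygenase. Neutrophil-like cells had 8.05 (7.35 to 8.81) and 7.14 (6.39 to 7.95), a ratio of 0.886 (0.768 to 1.02). Thinned to 1000 UMIs, 37.9% (31.0 to 45.2) of the 190 normal cells and 34.9% (27.8 to 42.6) of 169 fibrosis cells had a UMI, with 32 of 201 fibrosis cells too shallow to be thinned, and without thinning 52.6% and 45.3%. The B-cell-like background was 0.0268 and 0.0939, so by level neutrophil-like cells were the clearest site in each library. They held 56.75% of the normal and 27.45% of the fibrosis Ptgs2 UMIs. In fibrosis 394 myeloid cells without a sub-name had 0.4265 (0.363 to 0.498) from 160 UMIs. Scar-associated-macrophage-like cells of that library had 0.2923 from 113 UMIs. Type 2 dendritic-cell-like cells had 0.993 (0.792 to 1.23) and 0.411 (0.291 to 0.565), and Ptgs2 in LSEC-like, HSC-like and Kupffer-cell-like cells was under or near background.

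**Figure D3:**
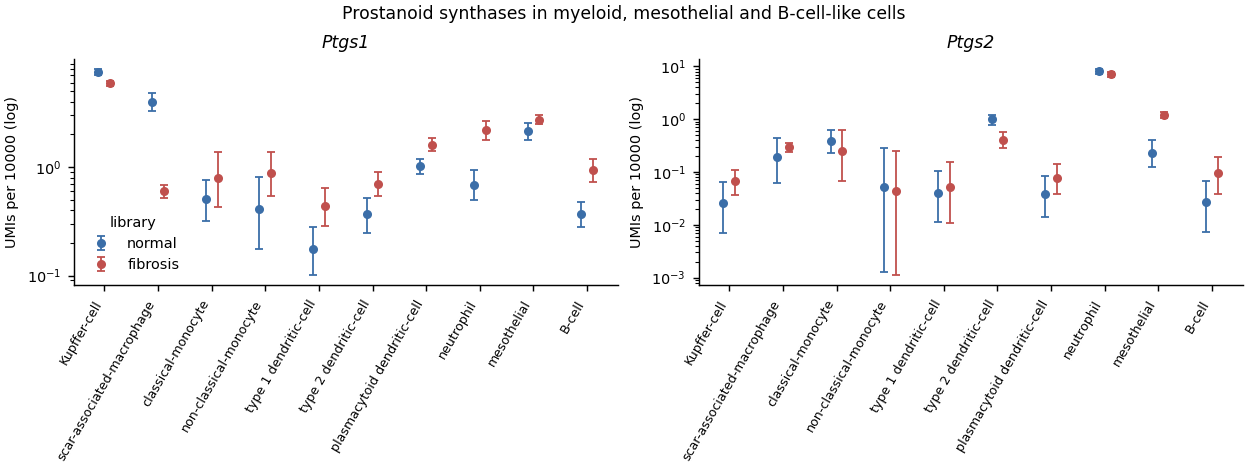
Levels of Ptgs1 (left) and Ptgs2 (right) in myeloid, mesothelial-like and B-cell-like cells of the normal (blue) and the fibrosis (red) library. Points are UMIs per 10000 UMIs on a log axis and bars are exact 95% Poisson intervals from counting alone. Ptgs1 is highest in Kupffer-cell-like cells, at 7.53 and 5.94, and Ptgs2 in neutrophil-like cells, at 8.05 and 7.14.

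Agtr1a (ENSMUSG00000049115, GRCm38 chr13:30336441-30382867) encodes the angiotensin II receptor through which the hormone contracts and activates stellate cells. HSC-like cells had 6.40 (5.66 to 7.20) and 3.58 (3.29 to 3.89), a ratio of 0.560 (0.484 to 0.649). Counted as UMIs per cell in place of UMIs per 10000, the ratio was 1.01, since the fibrosis cells held a median of 11421 UMIs against 6386. The lower value is thus in the gene's share of all UMIs, and its count per cell was nearly equal. The mesenchymal sub-clusters set aside came next, at 2.75 for cycling markers in the normal library and 1.97, 1.53 and 1.44 for endothelial, Kupffer cell and cycling markers in fibrosis. The remaining classes were lower, with mesothelial-like cells at 0.556 and 0.576, cholangiocyte-like cells at 0.445 and 0.433 and erythroid-like cells of the fibrosis library at 0.625, against a background of 0.215 and 0.403.

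Vipr1 (ENSMUSG00000032528, GRCm38 chr9:121642716-121672954) encodes the VPAC1 receptor for vasoactive intestinal peptide, a relaxing neuropeptide. Its level in HSC-like cells was 14.9 (13.8 to 16.1) and 5.65 (5.28 to 6.03), a ratio of 0.380 (0.343 to 0.421), or 0.683 when counted as UMIs per cell. Thinned shares were 68.9% (55.7 to 80.1) and 40% (31.3 to 49.1), and unthinned shares 90.2% and 87.2%. With the 10 genes and the pathway list left among the genes used for clustering, the ratio was 0.854, and the cause was not tested. Outside mesenchymal cells the highest level was 1.20, in erythroid-like cells of the fibrosis library. It stood at 0.125 and 0.352 in LSEC-like cells and 0.0899 and 0.245 in Kupffer-cell-like cells, while B-cell-like cells had 0.0537 and 0.604.

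The fibrosis HSC-like class was made of 2 sub-clusters that differed in Col1a1, the main fibrillar collagen, at 20.5 in 55 cells and 122.3 in 70 cells, against 2.09 in the normal class. Acta2, the actin of activated stellate cells, was at 7.40 and 11 in them and at 0.0232 in the normal class, while Lrat, the retinol-storing enzyme, was at 17 and 15.5 against 16. Vipr1 was at 10.6 (9.73 to 11.5) in the lower and 3.23 (2.90 to 3.59) in the higher Col1a1 sub-cluster, and Agtr1a at 4.80 (4.23 to 5.43) and 2.98 (2.67 to 3.33). Per cell Agtr1a was at 4.56 UMIs in each sub-cluster and Vipr1 at 10.1 and 4.93, so Vipr1 was lower in the higher Col1a1 sub-cluster on both scales and Agtr1a on the scale of all UMIs alone. The order did not extend to the set-aside cells with endothelial markers, which had Col1a1 at 15.7, Vipr1 at 4.94 and Agtr1a at 1.97. The higher Col1a1 sub-cluster was led by Robo2 and Col3a1 and had 0 HSC markers among its 10 leading genes, against 4 in the other, which was led by Tmem56 and Angptl6. Ece1 did not share this order, with 2.05 (1.68 to 2.47) and 2.08 (1.81 to 2.37), nor did Ednrb with 9.68 and 9.31. Further mesenchymal sub-clusters with endothelial, Kupffer cell or cycling markers had been set aside, which left 61 of 120 normal and 125 of 428 fibrosis cells. With them included the ratios were 0.414 (0.389 to 0.440) for Vipr1, 0.511 (0.464 to 0.563) for Agtr1a and 0.557 (0.509 to 0.610) for Ece1.

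**Figure D4:**
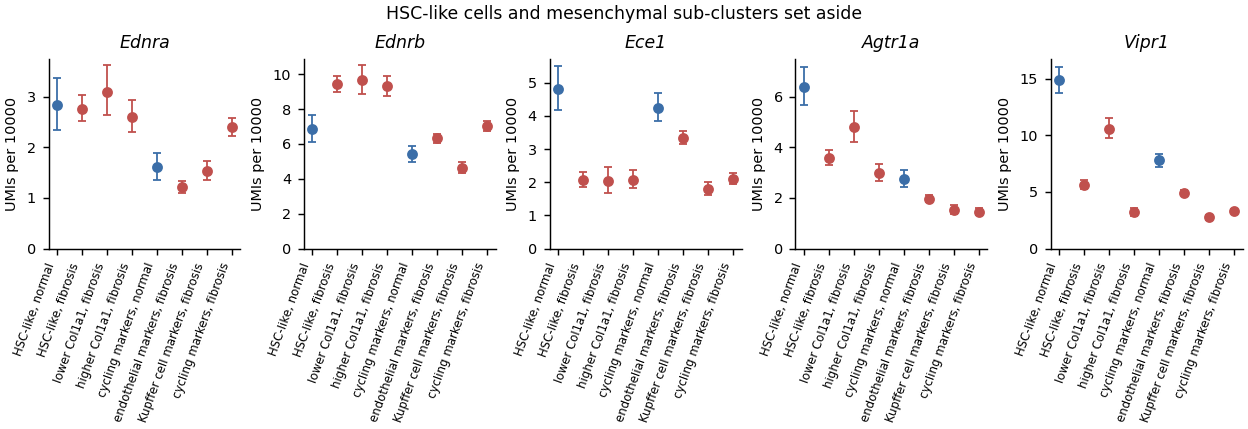
Levels of 5 genes in HSC-like cells of the normal (blue) and the fibrosis (red) library, in the lower and higher Col1a1 sub-clusters of the fibrosis class, and in the mesenchymal sub-clusters set aside for cycling, endothelial or Kupffer cell markers. Points are UMIs per 10000 UMIs and bars exact 95% Poisson intervals from counting alone. Vipr1 goes from 14.9 in the normal class to 10.6 and 3.23 in the 2 fibrosis sub-clusters, while Ednra stays between 2.60 and 3.10 in these 3 groups.

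Counted over the set, 2 of 7 genes with enough UMIs were higher and 0 lower past the fold in fibrosis LSEC-like cells, against 10.9% and 10.2% of 9447 genes, and the 2 were Ednrb and Vipr1, the latter under the B-cell-like level. In HSC-like cells 0 of 7 were higher and 3 lower (Ece1, Agtr1a and Vipr1), against 21.8% and 15.4% of 9370 genes, but as UMIs per cell 3 were higher (Ednra, Ednrb and Ptgs1) and 0 lower, with Ptgs1 under the B-cell-like level per 10000 UMIs in fibrosis. In Kupffer-cell-like cells 3 of 5 were higher (Ednrb, Agtr1a and Vipr1) and 0 lower, against 15.6% and 11.3%, and all 3 were under the B-cell-like level. In central-vein-like cells 3 of 8 were higher (Ednrb, Agtr1a and Vipr1) and 3 lower (Edn1, Ece1 and Cav1), against 16.9% and 15.1%, and of the higher ones Ednrb alone was above the B-cell-like level. Between zone 1-like and zone 2/3-like cells of the normal library 1 of 8 was higher (Ednrb) and 3 lower (Ptgs1, Agtr1a and Cav1), against 7.24% and 7.72%, with Agtr1a under background. In the fibrosis library 2 of 8 were higher (Edn1 and Vipr1) and 2 lower (Ptgs1 and Cav1), against 5.7% and 5.9%, with Vipr1 under background and Edn1 resting on 31 and 9 UMIs, 12 of the 31 in 1 cell. The median log2 ratio was 0.19 over the genes and 0.06 over all genes tested in LSEC-like cells, -0.38 and 0.07 in HSC-like cells and 0.73 and 0.10 in Kupffer-cell-like cells. With 5 to 8 genes tested these counts describe the set and were not tested.

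**Figure D5:**
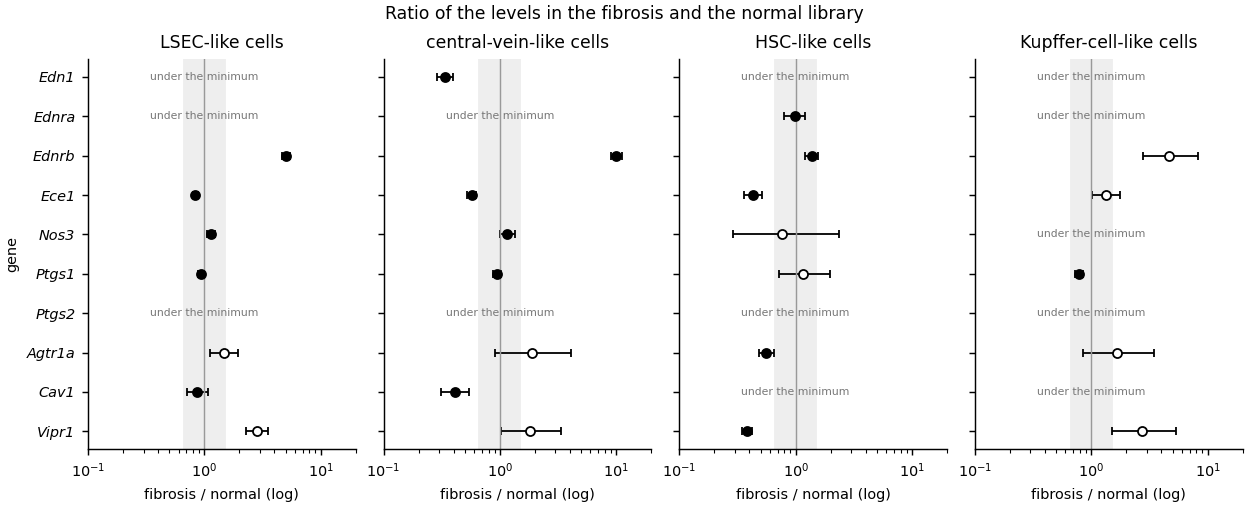
Ratio of the fibrosis to the normal level of each gene in 4 classes on a log axis, with exact conditional 95% intervals from counting alone. The grey band spans ratios under 1.5 either way, open circles mark genes whose fibrosis level is at or under that of B-cell-like cells, and genes with too few UMIs are named as under the minimum. Among central-vein-like cells Ednrb lies furthest right, at 10.0, and Edn1 furthest left, at 0.337, and among HSC-like cells Vipr1 lies furthest left, at 0.380.

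The wider vasoactive pathway list held 90 genes, 85 of them in the tables. In LSEC-like cells 13 of 40 tested were higher and 5 lower past the fold in fibrosis, against 10.9% and 10.2% of all genes, and 5 of the 13 and all 5 of the lower were at or under the B-cell-like level. In HSC-like cells 14 and 17 of 52 were, against 21.8% and 15.4%, with 4 and 5 at or under that level. In Kupffer-cell-like cells they were 16 and 4 of 38, against 15.6% and 11.3%, with 12 and 4 at or under it. For nitric oxide signalling, HSC-like cells had the soluble guanylate cyclase subunit Gucy1a1, which reads nitric oxide in contractile cells, at 5.03 and 6.98, a ratio of 1.39 (1.20 to 1.61). Ass1 and Asl, enzymes of the urea cycle that also remake arginine, were lower in fibrosis in HSC-like cells, with ratios of 0.0813 and 0.214. They are abundant in hepatocytes, their B-cell-like levels were 6.10 and 0.403 for Ass1 and 1.02 and 0.322 for Asl, and the summed level of 10 hepatocyte markers in B-cell-like cells was 341.4 and 31.4. Both were under the B-cell-like level in HSC-like cells in each library.

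Among the other relaxing inputs of HSC-like cells, Kcnj8, the pore of a vascular potassium channel, was at 3.36 and 0.603, a ratio of 0.179 (0.137 to 0.234), and Calcrl, the receptor partner for calcitonin gene-related peptide and adrenomedullin, at 6.88 and 2.44, a ratio of 0.354 (0.304 to 0.413). Both were lower past the fold, as Vipr1 was. Ptgis, the prostacyclin synthase, was higher, at 0.209 and 0.986, a ratio of 4.73 (2.43 to 10.5). The prostacyclin receptor Ptgir had 0 and 27 UMIs, with an exact lower limit of the ratio of 1.85, and the calcium channel Cacna1c 1 and 22 UMIs, a ratio of 5.96 (0.964 to 246). Cavin1, a caveola coat gene, was at 2.83 and 5.53, a ratio of 1.96 (1.62 to 2.39). Rgs5, a damper of receptor signalling in pericytes, stood at 28.9 and 23.0, a ratio of 0.796 (0.746 to 0.849). In LSEC-like cells Abcc9, the regulatory subunit paired with the Kcnj8 channel, was at 0.347 and 1.16, a ratio of 3.35 (2.96 to 3.81), above B-cell-like levels of 0.0671 and 0.322. Gucy1b1, the partner subunit of Gucy1a1, was at 0.113 and 0.409, a ratio of 3.61 (2.90 to 4.54), against 0.0402 and 0.215. Both were thus past the fold and above background there. The caveola gene Cavin2 stood at 12.3 and 16, the prostaglandin-degrading Hpgd at 4.43 and 5.54 and the natriuretic peptide receptor Npr1 at 5.41 and 3.94, all within the fold in LSEC-like cells. The 5 genes of the endothelin group of the list (Edn2, Edn3, Ece2, Mme and Kel) did not meet the limits on UMIs and level in LSEC-like, HSC-like or Kupffer-cell-like cells.

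The genes with the most similar pattern over 21 classes in both libraries (42 points, Pearson's r of log2 levels, 6024 genes compared) followed the classes. These points share libraries and were defined by markers, so r is a description. For Edn1 they were Vwf (r = 0.920), Selp and Cyp1a1, and for Ednrb Plvap (0.850), Clca3a1 and Kctd10. The HSC-like genes paired with genes of that class, Ednra with Aard (0.945), Pth1r and Adra2b, Agtr1a with Colec11 (0.895), Fgfr2 and Arvcf, and Vipr1 with Colec10 (0.947), Lama1 and Lrat. Nos3 was most like Nova2 (0.965), Slc26a10 and Cyyr1, and Ece1 like Arrb1 (0.848), Rtl8a and Sav1. Ptgs1 was most like Tmcc3 (0.883), Dab2 and Gm13431, Ptgs2 like Il1r2 (0.900), Ccr1 and Mmp8, and Cav1 like Gpm6a (0.907), Bcam and Lamb2.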

How the data were processed

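Gene expression was measured by 10x scRNA-seq in liver NPCs of 1 normal and 1 fibrosis mouse. Per the labels and methods the authors aligned reads to mm10 with Cell Ranger 3.0.1 and deposited raw UMI counts per gene and cell, without normalization. Each table lists the genes detected in its library.

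The filters were a mitochondrial limit of 10% and a minimum of 200 genes per cell. Each library was clustered alone (10000 UMIs per cell, ln(1 + x), 2000 variable genes, 10 principal components, 20 neighbours, Leiden resolution 0.8), with the 10 genes, the pathway list and mitochondrial, ribosomal-protein, haemoglobin and immunoglobulin genes left out of the variable genes. Endothelial-like, mesenchymal, myeloid and B lineage cells were clustered again. A cluster took the name of the marker list with the highest mean log2 fold over the other cells, with at least 3 markers raised, and sub-clusters in which a list of another class was higher were set aside. This rule and its thresholds were set after clusters had been seen. Doublets were not removed, and Scrublet called 1 cell per library.

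UMIs were summed per class and library. With 1 library per condition no test was made. Intervals are exact Poisson, conditional or binomial (Clopper-Pearson) at 95% and cover counting error only. Shares were computed after thinning each cell to 1000 UMIs, leaving out shallower cells. The genes, lists and comparisons were chosen with earlier results of these data known, and comparisons in central-vein-like, portal-vessel-like and single zone classes, the motifs, the extra markers and the co-detection counts after values were seen. Named genes are the 10, the 3 most similar genes to each, and the 4 pathway genes with the largest and smallest ratios and the highest of each group in LSEC-like and HSC-like cells, of which a part is printed. 1 of these genes is not reported here. On simulated LSEC-like libraries 200 of 200 genes changed 3 times were called in the right direction. Of 8930 unchanged genes 7 were called, and 94.9% of intervals held the true ratio. The simulated counts were Poisson draws at the LSEC-like totals, the law that the intervals assume, without variation between cells, clusters or mice. They check the calculation and give no error rate for these data or for smaller classes. GENCODE (GRCm38) gave gene positions and RefSeq the promoter windows. Python 3.11.15, scanpy 1.11.5, leidenalg 0.10.2, numpy 2.4.6, scipy 1.17.1 and pandas 2.3.3 were used. Alternatives were the scaling, UMIs per cell, mean over cells, mitochondrial limits, Leiden resolutions, Scrublet scores, the genes left in for clustering, the background subtracted, the UMI minimum, the fold and the cells with most UMIs.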

Additional observations from a re-analysis of the deposited data

Results flagged for a closer look

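Vipr1 differed between the libraries in opposite directions in different classes. Its ratio of fibrosis to normal was 0.380 in HSC-like cells, and 2.81 in LSEC-like, 2.89 in zone 1-like, 2.17 in zone 2/3-like, 1.83 in central-vein-like and 2.73 in Kupffer-cell-like cells. The intervals of these ratios lay on opposite sides of 1, but with 1 library per condition the difference between classes was not tested. In B-cell-like cells Vipr1 was at 0.0537 and 0.604, a ratio of 11.3, and the fibrosis levels in the endothelial and Kupffer-cell-like classes were under 0.604, whereas the HSC-like levels of 14.9 and 5.65 were far above it. The part of free RNA in the higher values was not tested.

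Agtr1a had a ratio of 0.560 in HSC-like cells and 1.99 in zone 1-like cells, and that difference was not tested either. The zone 1-like levels, 0.0855 and 0.170, were under the B-cell-like levels of 0.215 and 0.403, and the ratio there was 0.797 without the cells with the highest Scrublet scores.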

How the results depend on the processing

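No paired analysis was possible because the labels carry no replicate numbers and each condition has 1 library. Of 748 alternative values of 65 single ratios, 587 stayed within the limits of the value reported, 153 moved and 8 that had been past the fold reversed. Counting ratios within the fold too, 85 of the 748 lay on the other side of 1. Of 160 alternative counts, 127 stayed within 1.5 times and 33 did not.

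Counts below are of genes past the fold. With UMIs per cell the LSEC-like count was 4 higher (reported 2), and the HSC-like counts 3 higher and 0 lower (reported 0 and 3), and Agtr1a in HSC-like cells reversed to 1.01. The mean over cells gave 1 higher in HSC-like cells. A mitochondrial limit of 5% gave 2 lower in LSEC-like (reported 0) and 1 higher in Kupffer-cell-like cells (reported 3). With no mitochondrial limit 3 were higher in HSC-like cells, the fibrosis zone counts were 0 and 1 (reported 2 and 2), and the fibrosis zone ratios of Edn1, Cav1 and Vipr1 reversed to 0.648, 1.09 and 0.842. Without the highest Scrublet scores 2 were higher in HSC-like cells, 1 was lower between fibrosis zones, and Agtr1a in zone 1-like cells was at 0.797. A Leiden resolution of 0.4 gave 1 lower in LSEC-like cells, 1 higher and 6 lower in HSC-like cells, 0 higher between fibrosis zones, and ratios of 1.21 for Agtr1a between normal zones and 0.879 for Edn1 between fibrosis zones. A resolution of 1.5 gave 2 higher between normal zones (reported 1) and 0.945 for Edn1 between fibrosis zones. With the genes left in for clustering the counts were 1 and 1 in HSC-like cells and 4 lower between fibrosis zones. With the B-cell-like level subtracted they were 1 and 1 in LSEC-like cells, 0 higher in Kupffer-cell-like cells, and 1 higher between fibrosis zones and in central-vein-like cells. With no minimum 4, 1, 6 and 5 were higher in LSEC-like, HSC-like, Kupffer-cell-like and central-vein-like cells. All endothelial-like cells together gave 2 lower. Without the 3 cells with most UMIs 0 were higher between fibrosis zones. A fold of 2 gave 1 and 1 between fibrosis zones and 1 higher in central-vein-like cells. The causes were not tested.

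The ratio of Ednrb in central-vein-like cells ranged from 8.22 to 14.5, that of Edn1 there from 0.278 to 0.488, and that of Vipr1 in HSC-like cells from 0.257 to 0.854. Ednrb between fibrosis zones ranged from 0.311 to 3.26, and in LSEC-like cells from 1.30, with all endothelial-like cells, to 11.5. Other scalings shifted log2 ratios by at most 0.10 in the 6 comparisons with counts above. Alternatives gave no value in 12 cases, where a class was not named or had under 20 cells: at the 5% limit for HSC-like, central-vein-like, zone 1-like, zone 2/3-like and fibrosis zone comparisons, with no limit for normal zone, zone 1-like and zone 2/3-like, without the highest Scrublet scores for normal zone and zone 2/3-like, and at resolution 0.4 for central-vein-like and portal-vessel-like comparisons. Depth limits the smaller classes: 61 HSC-like cells of the normal library held 431612 UMIs, where 3 counts are 0.0695 per 10000 and the exact interval of a count of 0 reaches 0.0855.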

Other observations

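Outside the classes compared above, a few cells held much of the signal of a gene. In neutrophil-like cells of the normal library 48 of 52 Edn1 UMIs lay in 1 cell, and in NK/T-cell-like cells 112 of 250 lay in 3 cells. Mesothelial-like cells had Ptgs2 at 0.233 (0.124 to 0.399) and 1.22 (1.06 to 1.40), with 131 of the 210 fibrosis UMIs in 3 cells. Portal-fibroblast-like cells had 1 and 48 Edn1 UMIs, levels of 0.0286 and 0.418 and a ratio of 14.6 (2.50 to 590), with 23 of the 48 in 3 cells and a B-cell-like level of 0.0537 in fibrosis. Mature dendritic-cell-like cells, named in the normal library alone (69 cells), had Ptgs2 at 1.75 (1.40 to 2.15).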
